A study of Arabidopsis thaliana with 4 samples.

Results

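Suberin synthesis was followed through 10 genes of Arabidopsis thaliana, picked by gene identifier: MYB41 (AT4G28110), GPAT5 (AT3G11430), CYP86A1 (AT5G58860), CYP86B1 (AT5G23190), ASFT (AT5G41040), FAR1 (AT5G22500), FAR4 (AT3G44540), FAR5 (AT3G44550), ABCG2 (AT2G37360) and ABCG6 (AT5G13580). They are 10 of the 33610 gene rows in the count table, and all 10 were among the 21322 genes that passed the filter on low counts. ABCG2 lies on chromosome 2, GPAT5, FAR4 and FAR5 on chromosome 3, MYB41 on chromosome 4 and the other 5 on chromosome 5 (TAIR10.1). RNA came from whole seedlings, 2 weeks old, of the ecotype Col-0. The 4 groups were wild type without treatment, wild type after 12 h of the hormone abscisic acid (ABA), a lincRNA11195 mutant without treatment, and the same mutant after 12 h of ABA, with 3 biological replicates each. lincRNA11195 is a long intergenic noncoding RNA. The labels name 1 mutant and do not say how the line was made, so its lesion and any other difference between the seed lines cannot be told apart, and the RNA itself was not analysed here.

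Suberin is a wall polymer of fatty acid derivatives, glycerol and ferulic acid that seals the root endodermis, the periderm, seed coats and wounds against water and solutes. Fatty acids are oxidised at the chain end by cytochromes P450 of the CYP86 family, reduced to primary alcohols by FAR reductases, joined to glycerol by GPAT acyltransferases and to ferulate by ASFT, and carried out of the cell by ABCG half-transporters before polymerisation in the wall. ABA is known to induce suberin deposition in roots, and the factor MYB41 turns on suberin synthesis when it is overexpressed.

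Libraries held 14691544 to 22477294 counts. The ABA marker genes RD29B, RAB18 and ABI1 rose in both genotypes. Log2 fold changes were 6.23, 4.70 and 3.06 in wild type and 7.42, 6.86 and 3.01 in the mutant. Their untreated levels were uneven. Wild type replicate 1 had 298 RD29B counts against 2 and 5, and 512 RAB18 counts against 69 and 86. Its ABI1 stood nearer its group, at 1164 counts against 941 and 908. The untreated mutant libraries had 8, 92 and 6 RD29B counts and 13, 30 and 20 RAB18 counts. Without treatment, edgeR called 1 of the 3 markers lower in the mutant than in wild type. Summed levels of 6 green tissue markers were 24120 to 27590 CPM (TMM-normalised counts scaled to a common library size) in untreated wild type, 6162 to 6894 with ABA, 5012 to 10980 in the untreated mutant and 3418 to 6172 in the mutant with ABA. Untreated mutant replicate 1 had the lowest green tissue sum of its group, 5012 against 9339 and 10980 CPM, and the lowest root hair marker sum, 14.2 against 28.4 and 50.9 CPM. In RNA from whole seedlings, fewer cells of a type and less RNA per cell cannot be told apart.

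The 250 bases before the annotated start of each gene were read from the TAIR10.1 genome and searched on both strands for the core of the ABA response element, ACGTG, and for the AC element bound by MYB factors, ACCNACC or ACCNAAC. Of the 10 windows, 4 held the ABA response core (40%, against 22.9% of 27443 windows of protein-coding genes) and 4 held an AC element (40%, against 19.3%). No window held both (4.54% of all windows did), and those of CYP86A1 and FAR5 held neither. The 5 windows below show both kinds and 1 of the 2 windows with neither, with the matches in capitals. MYB41 had the most matches to the core, of which 2 overlap in a palindrome.
MYB41, chr4:13969526-13969775, minus strand: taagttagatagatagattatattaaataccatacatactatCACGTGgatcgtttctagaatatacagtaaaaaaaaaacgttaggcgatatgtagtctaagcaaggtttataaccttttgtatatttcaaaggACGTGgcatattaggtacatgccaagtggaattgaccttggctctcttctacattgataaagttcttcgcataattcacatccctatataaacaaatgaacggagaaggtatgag
GPAT5, chr3:3595444-3595693, plus strand: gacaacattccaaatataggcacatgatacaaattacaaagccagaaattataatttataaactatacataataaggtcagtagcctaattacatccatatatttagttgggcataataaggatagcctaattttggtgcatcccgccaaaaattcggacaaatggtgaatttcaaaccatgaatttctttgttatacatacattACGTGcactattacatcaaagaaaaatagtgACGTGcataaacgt
FAR1, chr5:7470078-7470327, plus strand: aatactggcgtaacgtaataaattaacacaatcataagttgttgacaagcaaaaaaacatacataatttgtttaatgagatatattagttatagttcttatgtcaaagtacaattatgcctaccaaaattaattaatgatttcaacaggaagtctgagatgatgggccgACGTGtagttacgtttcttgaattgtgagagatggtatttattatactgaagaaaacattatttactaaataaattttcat
ASFT, chr5:16431054-16431303, plus strand: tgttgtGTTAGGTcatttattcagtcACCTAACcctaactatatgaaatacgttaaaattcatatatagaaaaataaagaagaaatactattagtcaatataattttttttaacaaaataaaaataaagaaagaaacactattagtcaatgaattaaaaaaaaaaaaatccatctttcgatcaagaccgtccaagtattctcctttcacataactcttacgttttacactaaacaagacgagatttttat
CYP86A1, chr5:23768112-23768361, minus strand: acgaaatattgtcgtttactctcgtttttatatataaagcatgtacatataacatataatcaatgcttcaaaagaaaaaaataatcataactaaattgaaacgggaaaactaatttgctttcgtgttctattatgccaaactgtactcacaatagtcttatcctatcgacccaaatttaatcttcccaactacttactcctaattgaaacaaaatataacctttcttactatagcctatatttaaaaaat
The matches are descriptions of these letters and not evidence of binding. In ASFT the AC elements lay 244 and 224 bases before the start, and in MYB41 the core matches lay 208, 207 and 115 bases before it.

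ABA raised most of the pathway in both genotypes. In wild type, 9 of the 10 genes rose and none fell, where 25.2% of all genes tested rose and 28.2% fell. In the mutant, 10 of 10 rose, where 21.5% of all genes rose and 21.1% fell. The 10 genes were chosen with earlier results of these data known, so the contrast with all genes only describes them. The median log2 fold change over the 10 genes was 1.84 in wild type and 1.75 in the mutant, beside −0.03 and −0.00 over all genes tested. Calls are an adjusted p under 0.05 in edgeR's quasi-likelihood test, with Benjamini-Hochberg adjustment over all 21322 genes. Errors of fold changes are approximate standard errors: the size of the log2 fold change divided by the square root of the test's F statistic. The levels of the 10 genes summed to 181.8 to 188.8 CPM in untreated wild type libraries and 563.6 to 651.2 CPM with ABA, and to 190.3 to 206.4 and 574.4 to 616.6 CPM in the mutant.

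**Figure D1:**
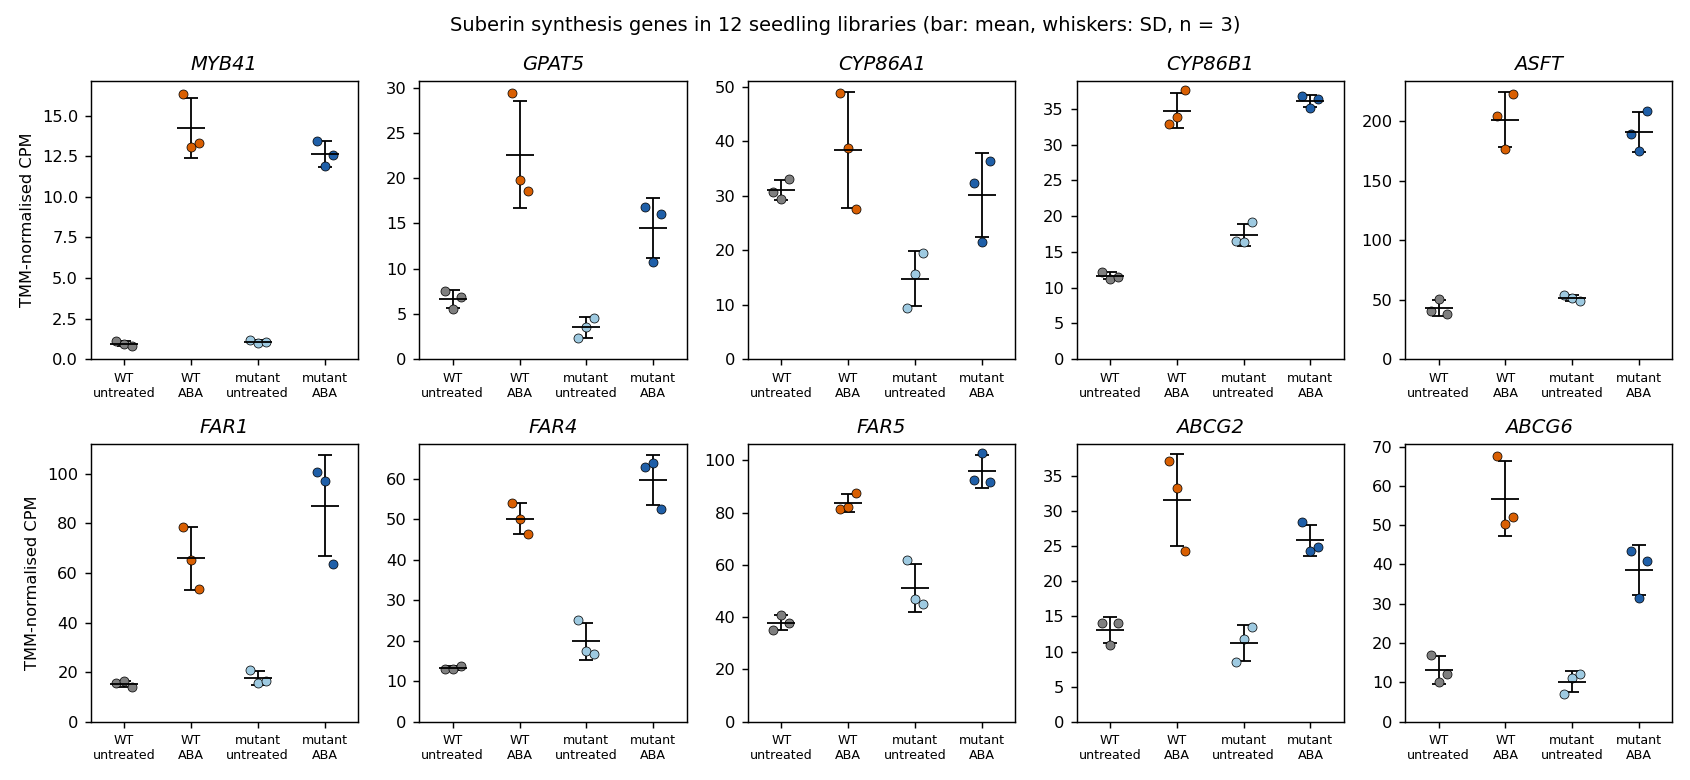
TMM-normalised CPM (y axes, each from 0) of the 10 suberin genes in the 4 groups (x axes), with 1 point per library, a bar for the mean and whiskers for the SD (n = 3). All ABA libraries lie above the untreated libraries of their genotype for every gene except CYP86A1 in wild type, where the 2 groups overlap.

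MYB41, the R2R3-MYB factor that activates suberin genes, had the strongest response of the 10. Untreated wild type libraries gave 1.11, 0.923 and 0.781 CPM, from 19, 15 and 13 counts, and ABA libraries gave 16.4, 13.1 and 13.3 CPM. Mutant libraries gave 1.16, 1.001 and 1.07 CPM untreated and 13.5, 11.9 and 12.6 CPM with ABA. The ABA libraries of both genotypes stood far above the untreated ones, with no overlap. The log2 fold change was 3.91 ± 0.19 in wild type (15.1-fold, adjusted p = 3.45e-08, edgeR) and 3.55 ± 0.18 in the mutant (11.8-fold, adjusted p = 5.93e-08, edgeR). Of all genes tested, 99.1% and 98.9% had a smaller log2 fold change.

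GPAT5, the acyltransferase that attaches suberin fatty acids to glycerol, was at 7.52, 5.54 and 6.85 CPM in untreated wild type and at 29.4, 19.8 and 18.6 CPM with ABA. In the mutant it was at 2.31, 3.58 and 4.58 CPM untreated and at 16.8, 10.7 and 16.01 CPM with ABA. Every ABA library exceeded every untreated library, and the untreated mutant lay below untreated wild type in all 3 libraries. GPAT5 rose by 1.77 ± 0.26 on the log2 scale in wild type (adjusted p = 1.21e-04, edgeR) and by 2.04 ± 0.27 in the mutant (adjusted p = 7.8e-05, edgeR).

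The hydroxylases CYP86A1 and CYP86B1, which oxidise the chain end of long and very long fatty acids, behaved differently from each other. CYP86A1 was at 30.6, 29.4 and 33.0 CPM in untreated wild type and at 48.9, 38.8 and 27.5 CPM with ABA. The mutant gave 9.31, 15.6 and 19.4 CPM untreated and 32.4, 21.6 and 36.4 CPM with ABA. In wild type, 1 ABA library lay below all 3 untreated libraries, whereas in the mutant the groups did not overlap. The log2 fold change of CYP86A1 was 0.31 ± 0.26 in wild type (adjusted p = 0.344, edgeR) and 1.02 ± 0.27 in the mutant (adjusted p = 0.00889, edgeR), and the difference between them, 0.72 ± 0.38, did not pass the interaction test (adjusted p = 0.488, edgeR). With offsets for gene GC content and length, an alternative scaling, the wild type value became 1.09 and passed (adjusted p = 1.14e-04, edgeR).

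CYP86B1 had little spread within groups. Untreated wild type gave 12.2, 11.3 and 11.4 CPM and ABA 32.9, 33.8 and 37.6 CPM. The mutant gave 16.5, 16.4 and 19.1 CPM untreated and 36.8, 35.2 and 36.3 CPM with ABA. Untreated mutant libraries were all above untreated wild type, while the ABA libraries of both genotypes covered a common range. CYP86B1 rose by 1.58 ± 0.11 in wild type (adjusted p = 4.75e-07, edgeR) and by 1.06 ± 0.11 in the mutant (adjusted p = 1.27e-05, edgeR) on the log2 scale. The smaller rise in the mutant, a difference of −0.52 ± 0.16, did not pass edgeR's interaction test (adjusted p = 0.139), whereas DESeq2 called it (−0.55, adjusted p = 0.0455).

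ASFT, the transferase that adds ferulate to the aliphatic chains, had the highest level per exonic length in each group. It was at 40.4, 50.4 and 38.0 CPM in untreated wild type and at 204.7, 177.0 and 222.8 CPM with ABA. Mutant libraries gave 53.7, 51.1 and 48.5 CPM untreated and 189.4, 175.4 and 209.0 CPM with ABA. The 2 genotypes overlapped under ABA, and ABA separated the groups completely in each. The rise was 2.23 ± 0.15 in wild type (4.69-fold, adjusted p = 2.79e-07, edgeR) and 1.90 ± 0.15 in the mutant (3.74-fold, adjusted p = 1.07e-06, edgeR) on the log2 scale.

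FAR1, FAR4 and FAR5 encode reductases that make the primary alcohols of suberin, each with its own preferred chain length. FAR1 spanned 13.8 to 16.3 CPM in untreated wild type and 53.5 to 78.7 CPM with ABA, and 15.5 to 20.9 and 63.7 to 100.5 CPM in the mutant. It rose by 2.12 ± 0.20 and 2.31 ± 0.20 on the log2 scale (adjusted p = 4.18e-06 and 2.52e-06, edgeR). FAR4 was at 12.9, 12.9 and 13.8 CPM in untreated wild type, 54.1, 50.1 and 46.3 CPM with ABA, 25.1, 17.6 and 16.8 CPM in the untreated mutant and 62.8, 63.8 and 52.5 CPM in the mutant with ABA. FAR4 thus had its highest untreated value in mutant replicate 1. Its rises were 1.92 ± 0.16 and 1.59 ± 0.16 (adjusted p = 1.33e-06 and 6.46e-06, edgeR).

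FAR5, which lies next to FAR4 on chromosome 3, responded least of the reductases. It was at 34.98, 41.0 and 37.8 CPM in untreated wild type and at 81.3, 82.1 and 87.5 CPM with ABA. Mutant libraries gave 61.8, 46.7 and 45.1 CPM untreated and 92.6, 102.9 and 91.6 CPM with ABA. The groups did not overlap in any of these 4 pairings of genotype or treatment. FAR5 rose by 1.14 ± 0.14 in wild type and 0.90 ± 0.14 in the mutant (adjusted p = 2.61e-05 and 2.16e-04, edgeR), and with GC and length offsets by 0.49 and 0.57. Coding sequences of FAR1 and FAR4 are 76.7% identical, of FAR4 and FAR5 73.0% and of FAR1 and FAR5 72.0%. No exonic stretch of 50 bases is shared between any of the 10 genes and a paralog.

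The transporters ABCG2 and ABCG6 are half-size ABC proteins needed for the suberin barrier of roots. ABCG6 was at 17.1, 10.1 and 12.3 CPM in untreated wild type and at 67.7, 50.3 and 52.1 CPM with ABA. The mutant gave 7.12, 11.2 and 12.2 CPM untreated and 43.4, 31.4 and 40.8 CPM with ABA, so that all mutant ABA libraries lay below all wild type ABA libraries. ABCG6 rose by 2.11 ± 0.23 in wild type and 1.92 ± 0.24 in the mutant (adjusted p = 1.44e-05 and 4.42e-05, edgeR). ABCG2 spanned 10.9 to 14.1 CPM untreated and 24.4 to 37.1 CPM with ABA in wild type, and 8.46 to 13.4 and 24.4 to 28.4 CPM in the mutant, with rises of 1.27 ± 0.20 and 1.20 ± 0.20 (adjusted p = 1.66e-04 and 3.83e-04, edgeR). ABCG2 overlaps AT2G37362 on the opposite strand over nearly all its exons. The table lists that gene separately, at 161 to 182 counts in untreated wild type and 107 to 127 with ABA, and at 98 to 154 and 81 to 92 counts in the mutant. ABCG2 itself had 177 to 242 counts in untreated wild type and 566 to 753 with ABA, and 139 to 302 and 467 to 567 in the mutant. The kit was stranded, but no source used here says whether strand entered the counting. How reads of the shared stretch were assigned to the pair is therefore not known. For ASFT the shared part is small, with 14 of 1676 stretches of 50 bases found also in AT5G41050. FAR1 and FAR4 also overlap antisense genes, which were not analysed here.

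**Figure D2:**
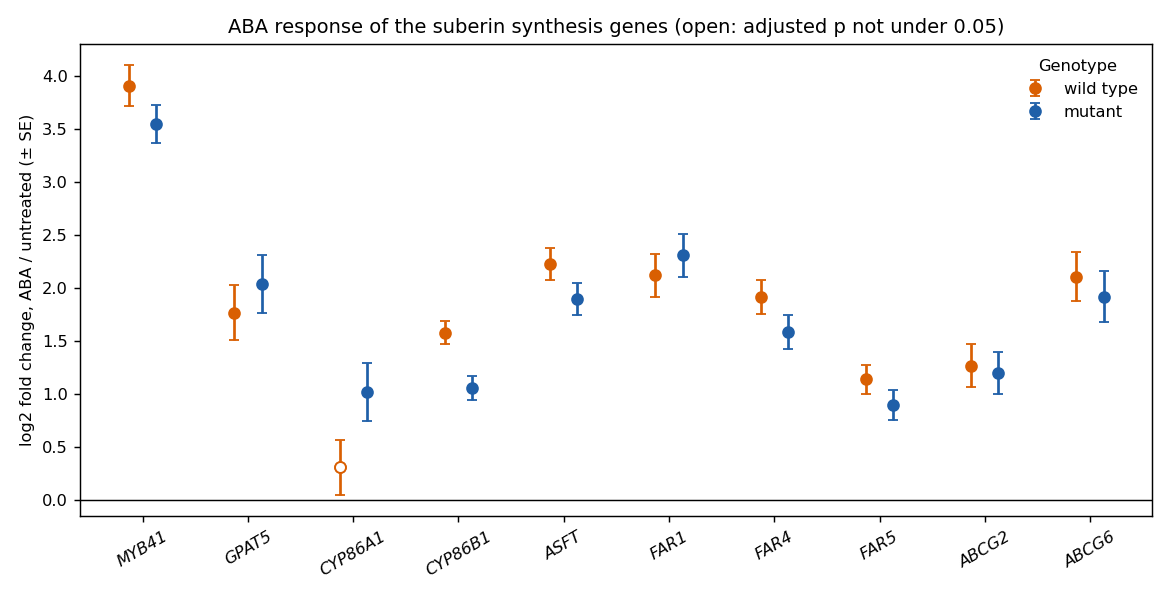
Log2 fold change of ABA against untreated (y axis) for each suberin gene (x axis) in wild type and mutant, with standard errors. Open points mark an adjusted p of 0.05 or more, which holds for CYP86A1 in wild type alone, and MYB41 stands highest in both genotypes.

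Levels can be ranked between genes only per length, in RPKM over the exonic length. In untreated wild type ASFT led with 23.6 ± 3.62 RPKM (SD, n = 3), above CYP86A1 at 16.6 ± 0.974, FAR5 at 12.8 ± 1.01 and FAR1 at 6.70 ± 0.558, each without overlap of libraries with the next. ABCG2, ABCG6 and CYP86B1 followed at 5.26, 5.24 and 4.997 RPKM with overlapping libraries, then FAR4 at 4.50, GPAT5 at 3.32 and MYB41 at 0.675 RPKM. With ABA, ASFT in wild type stood at 110.5 ± 12.6 RPKM. FAR1 at 29.0 and FAR5 at 28.2 RPKM came next and overlapped, and from ABCG6 at 22.6 down to MYB41 at 10.3 RPKM each gene overlapped its neighbour. In the mutant with ABA the order began with ASFT at 104.9, FAR1 at 38.4 and FAR5 at 32.2 RPKM and ended with GPAT5 at 7.26 RPKM. In the untreated mutant CYP86A1 stood at 7.92 ± 2.74 RPKM, where it overlapped FAR1 at 7.78. The annotated exons of FAR4 and FAR5 span 2936 and 2971 bases against coding lengths of 1482 and 1491, so their RPKM depends on that annotation. The rank of ABCG2 depends on how reads of the stretch shared with AT2G37362 were assigned, which is not known.

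Without treatment edgeR called a difference between mutant and wild type in 5 of the 10 genes, in both directions. CYP86B1, FAR4 and FAR5 were higher, where 8.77% of all genes tested were, and GPAT5 and CYP86A1 were lower, where 14.8% were. The log2 differences were 0.58 ± 0.11 for CYP86B1 (adjusted p = 0.00367, edgeR), 0.58 ± 0.16 for FAR4 (adjusted p = 0.0192), 0.43 ± 0.14 for FAR5 (adjusted p = 0.0369), −0.91 ± 0.27 for GPAT5 (adjusted p = 0.0308) and −1.06 ± 0.27 for CYP86A1 (adjusted p = 0.0143). These are the 5 genes whose libraries did not overlap between genotypes, 3 wholly above and 2 wholly below. Of all genes tested, 21.3% lay wholly above and 23.9% wholly below, so this count is near the share over all genes. The other 5 had differences of 0.19 for MYB41, 0.25 for ASFT, 0.21 for FAR1, −0.21 for ABCG2 and −0.37 for ABCG6, none of which passed the test. Endodermis markers summed to 81.1 to 134.5 CPM in the untreated mutant and 131.5 to 166.4 CPM in untreated wild type, and 2 of 10 were called lower, CASP1 and CASP2 (1 with GC and length offsets). Their part in the lower GPAT5 and CYP86A1 was not tested.

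Of these 5 calls, the one for CYP86B1 held with GC and length offsets and without any single library, and the other 4 did not hold throughout. Exons of GPAT5 and CYP86A1 are 43.5% and 45.9% GC and those of FAR4 and FAR5 are 35.7% and 34.8%, where the median over 21042 tested genes is 41.1% and the 10th and 90th percentiles are 37.7% and 44.0%. With GC and length offsets CYP86B1 alone stayed called, at 0.41 (adjusted p = 0.0207, edgeR). FAR4 went to −0.01 and FAR5 to −0.20, while GPAT5 went to −0.63 (adjusted p = 0.0753) and CYP86A1 to −0.30 (adjusted p = 0.210). Untreated mutant replicate 1 had the lowest GPAT5, CYP86A1, ABCG2 and ABCG6 of its group and the highest FAR1, FAR4 and FAR5. This library also had the lowest total of the 12, 14691544 counts, and the highest TMM factor, 1.119. Without it CYP86B1 was again the 1 gene called higher and none was called lower, with GPAT5 at −0.70 (adjusted p = 0.119) and CYP86A1 at −0.82 (adjusted p = 0.0530). Without wild type untreated replicate 1, CYP86B1 was called higher and CYP86A1 lower, and the calls of FAR4 (0.57, adjusted p = 0.0620), FAR5 (0.38, adjusted p = 0.127) and GPAT5 (−0.81, adjusted p = 0.0965) were lost. GPAT5 also lost its call without wild type untreated replicate 3 (−0.89, adjusted p = 0.0686) or mutant untreated replicate 2 (−0.88, adjusted p = 0.0815). FAR5 lost its call in 5 of the 12 fits that left out 1 library. The part of GC content in these differences was not tested further.

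**Figure D3:**
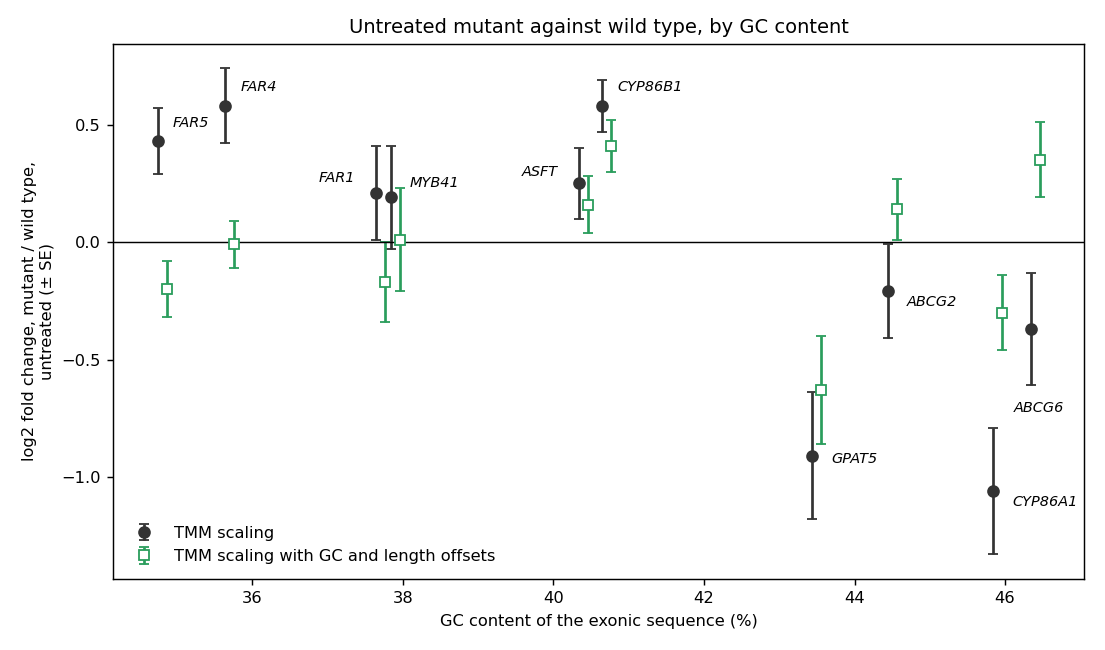
Log2 fold change of untreated mutant against untreated wild type (y axis) by GC content of the exons in percent (x axis), with standard errors. Filled circles are the values with TMM scaling and open squares those with GC and length offsets. With the offsets FAR4 moves to −0.01 and FAR5 crosses to −0.20 at the low end, CYP86A1 moves to −0.30 and ABCG6 crosses to 0.35 at the high end, and CYP86B1 stays above 0.

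Under ABA the genotypes were not told apart in any of the 10 genes. edgeR called 0 higher and 0 lower, where 1.61% and 0.178% of all genes were called. At an unadjusted p under 0.05 there were 0 higher and 2 lower, GPAT5 at −0.64 ± 0.25 and ABCG6 at −0.56 ± 0.22 (adjusted p = 0.292 and 0.307, edgeR), and DESeq2 gave the same counts at both thresholds. These 2 genes lay wholly below wild type and FAR5 wholly above, where 8.71% and 10.7% of all genes did. The difference in ABA response between genotypes was likewise called in 0 genes higher and 0 lower by edgeR, where 1.66% and 0.141% of all genes were. At an unadjusted p under 0.05 there was 1 gene, lower, and DESeq2 called 1, CYP86B1. The ABA and genotype comparisons share libraries, so their values are not independent.

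Other genes of the pathway were read from lists. Of 10 further suberin genes, 7 rose and 1 fell with ABA in wild type and 8 rose in the mutant, with medians of 1.30 and 1.42. Of all genes tested, 25.2% rose and 28.2% fell in wild type, and 21.5% rose in the mutant. KCS2, an elongase of fatty acid chains, rose by 3.45 ± 0.26 in wild type and 3.01 ± 0.26 in the mutant. The transporter gene ABCG1 rose by 1.81 ± 0.17 and 1.61 ± 0.17, and GELP96 and GELP51, of the lipase family that builds the polymer, rose by 1.75 ± 0.11 and 1.63 ± 0.12 in wild type. LTPG15, a lipid transfer protein gene, was at 9.62, 9.97 and 11.2 CPM in untreated wild type, 5.57, 4.21 and 5.33 CPM with ABA, 2.62, 1.77 and 2.53 CPM in the untreated mutant and 4.61, 4.68 and 4.26 CPM in the mutant with ABA. It fell in wild type (−1.02 ± 0.18, adjusted p = 0.0004, edgeR) and rose in the mutant (0.97 ± 0.19, adjusted p = 0.00147, edgeR).

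Of 11 other transcription factor genes tied to suberin, 8 rose and none fell in each genotype, with medians of 1.42 and 1.23. With GC and length offsets 8 rose and 1 fell in each. MYB74 rose by 4.31 ± 0.27 and 4.29 ± 0.26, MYB49 by 1.59 ± 0.14 and 1.36 ± 0.14, and MYB93 by 1.42 ± 0.15 and 1.15 ± 0.14. MYB102 had 3, 1 and 0 counts in untreated wild type and 561, 436 and 482 with ABA, and 0, 13 and 1 counts and then 621, 547 and 408 in the mutant. Of 10 phenylpropanoid genes, which supply ferulate, 3 rose in wild type (5 with GC and length offsets) and 6 in the mutant, with PAL4 at 1.35 ± 0.24 and 1.88 ± 0.25. Among all genes tested, 25.2% rose in wild type and 21.5% in the mutant. Without treatment 4 of the 10 were lower in the mutant, where 14.8% of all genes tested were, and 0 with GC and length offsets.

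The cutin genes build the related polymer of the shoot surface. Of 14, 1 rose and 9 fell with ABA in wild type, while 4 rose and 2 fell in the mutant, with medians of −0.72 and 0.15. Of all genes tested, 25.2% rose and 28.2% fell in wild type, and 21.5% rose and 21.1% fell in the mutant. The mutant counts are near these shares. With GC and length offsets 2 rose and 6 fell in wild type, and 7 rose and 2 fell in the mutant. DCF, which adds ferulate to cutin, fell by 2.72 on the log2 scale in wild type and by 1.73 in the mutant, and the transporter gene ABCG11 rose by 0.78 and 0.73. Without treatment 8 of the 14 were lower in the mutant, where 14.8% of all genes tested were, and 5 with GC and length offsets. Green tissue markers were lower in the same comparisons, with 6 of 6 called lower with ABA in wild type and 6 of 6 in the untreated mutant, and their part in the cutin values was not tested.

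Suberin forms in the endodermis, so the markers of that tissue were read beside it. Of 10, 2 rose and 5 fell in wild type, where 25.2% of all genes tested rose and 28.2% fell. In the mutant 2 rose and 4 fell, where 21.5% of all genes rose and 21.1% fell. The summed level of the 10 markers was 131.5 to 166.4 CPM in untreated wild type and 92.9 to 106.8 with ABA. In the mutant it was 81.1 to 134.5 CPM untreated and 83.3 to 91.4 CPM with ABA. The Casparian strip genes CASP1 and CASP2 fell by 2.53 and 2.21 on the log2 scale in wild type, while CASP5 rose by 3.69 ± 0.52, from 4, 0 and 4 counts to 43, 37 and 58. The receptor kinase gene SGN3 rose by 1.04 ± 0.16. Of 5 root hair markers 2 fell and of 4 root stele markers 3 fell in wild type, where 28.2% of all genes tested fell. In the mutant 1 and 2 of these markers fell, where 21.1% of all genes tested did. With GC and length offsets 0 root hair markers fell and 1 rose in wild type. Of 5 other FAR genes only FAR3, a wax gene of the shoot, passed the filter, and it fell by 1.34 and 1.43. FAR8, which is 87.5% identical to FAR5 in its coding sequence, had at most 2 counts in a library.

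**Figure D4:**
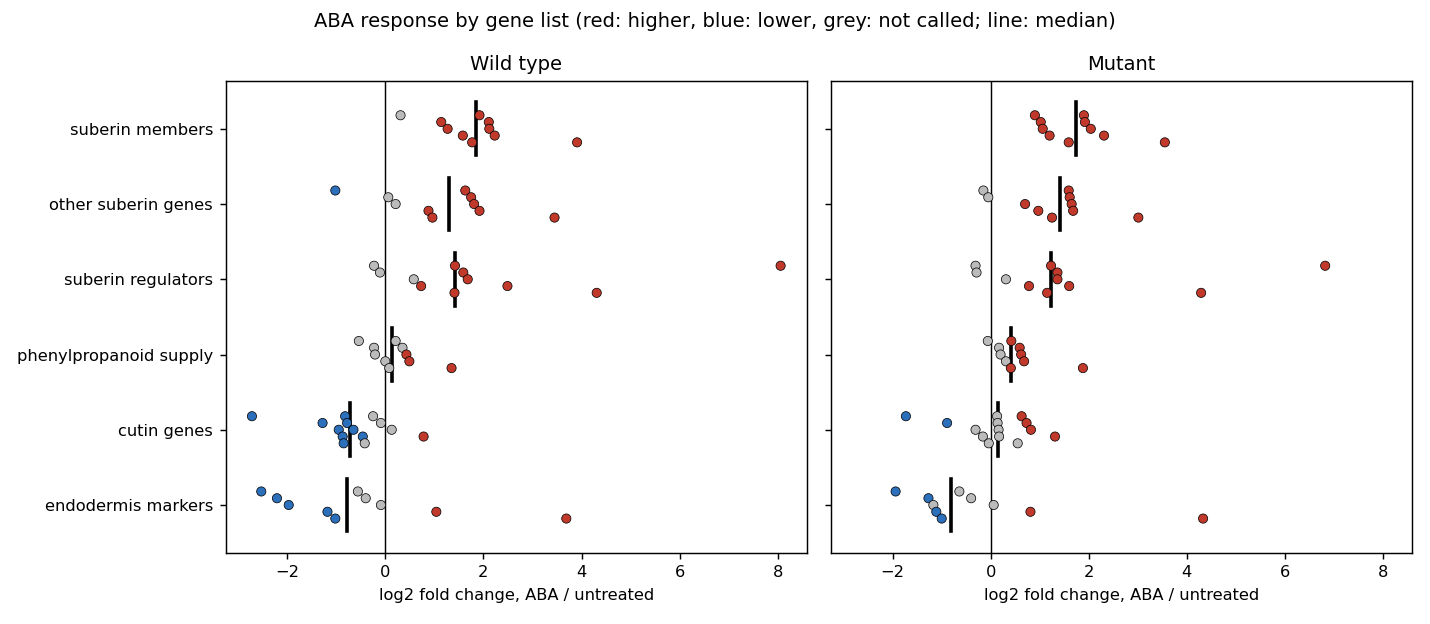
Log2 fold change of ABA against untreated (x axis) for each tested gene of 6 lists (rows), in wild type and mutant. Red points were called higher, blue lower and grey neither, and the black line is the median, which lies at 1.84 and 1.75 for the 10 suberin genes and at −0.72 and 0.15 for cutin genes.

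The genes with profiles most like those of the 10 were found by Pearson's r of log2(CPM + 1) over the 12 libraries, among 19881 genes with a mean of at least 1 CPM. The libraries fall into ABA and untreated sets, so r mainly ranks genes by that contrast. Closest to MYB41 were CYP707A1, an ABA breakdown enzyme, HB-7 and FBH3 (r = 0.998 each), then HB-12 and AT5G24080 (r = 0.997 each). HB-7 rose from 14.9 to 23.2 CPM across untreated wild type libraries to 463.2 to 726.9 CPM with ABA. Closest to the mean profile of the other 9 were PYD2, P5CS1, which makes proline, and A/N-InvB (r = 0.997 each), then AT1G02816 and AT3G50400 (r = 0.996 each).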

How the data were processed

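Gene expression was measured by RNA sequencing of polyadenylated RNA from 12 seedling libraries in 4 groups of 3. The authors deposited raw counts, whole numbers per gene and library. The submitters' processing notes list the TAIR10 build, Trim Galore 0.3.3 and edgeR (version unstated). Aligner, counting tool and strand setting: not given in the sources used here. Per the labels, the kit was TruSeq Stranded mRNA.

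Counts were tested in R 4.3.3 with edgeR 4.0.16 (limma 3.58.1): filterByExpr by group kept 21322 genes with 99.96% of counts, TMM factors scaled the libraries, and 1 quasi-likelihood fit over all 12 gave 5 comparisons, with a common biological coefficient of variation of 0.185. A call is a Benjamini-Hochberg adjusted p under 0.05. CPM are TMM-normalised and RPKM use exonic length in the TAIR10.1 annotation, which also gave names, positions, GC content and sequences by gene identifier. Total counts were 14691544 to 22477294. The fit was also run on simulated counts. These had the same dispersion for every gene and no batch or GC effect, so that run is no check on those traits.

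Alternatives were DESeq2 1.42.0, other scalings, no filter, organelle genes left out, GC and length offsets (loess per library), a replicate block, fits of the 2 groups alone, and each library left out. The 10 genes and the lists were chosen with earlier results of these data known. All 10 are named. From each other list the text may name the 4 genes with the smallest adjusted p for ABA in wild type and up to 3 called between genotypes or in the interaction, and by likeness the 5 nearest genes. The counts of MYB102 and FAR8 are also given, as are genes called in the reported fit or an alternative whose sign turned between them.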

Additional observations from a re-analysis of the deposited data

Results flagged for a closer look

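The interaction term of edgeR's quasi-likelihood fit was called in none of the 10 suberin genes and in 10 genes of the other lists: 5 cutin genes, 3 green tissue markers, 1 further suberin gene and 1 root stele marker. Of all genes tested, 1.66% were called higher and 0.141% lower. Up to 3 per list are given, without the green tissue markers, whose median term was 1.45 over 6 genes, all above 0. Over the 14 cutin genes the median was 0.81. Values are log2 ABA responses, mutant minus wild type. For the cutin hydroxylase gene CYP86A2 it was 2.26 ± 0.31 (adjusted p = 0.00358, edgeR), with 73.0, 67.5 and 60.6 CPM in untreated wild type, 41.8, 37.5 and 24.7 CPM with ABA, 9.67, 11.1 and 17.6 CPM in the untreated mutant and 34.3, 30.01 and 31.1 CPM in the mutant with ABA. For its relatives CYP86A4 and CYP86A8 it was 1.29 ± 0.26 and 0.82 ± 0.17 (adjusted p = 0.0268 each, edgeR). For LTPG15 it was 2.0 ± 0.26 (adjusted p = 0.00285, edgeR) and for SHR, a root stele gene, 1.48 ± 0.26 (adjusted p = 0.0112, edgeR). In 4 of these 5, all but SHR, the untreated mutant had the lowest mean of the 4 groups. With GC and length offsets CYP86A2 (1.72), LTPG15 (2.28) and SHR (1.23) were still called, and CYP86A4 (1.07, adjusted p = 0.111) and CYP86A8 (0.77, adjusted p = 0.0547) were not.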

How the results depend on the processing

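ABA log2 fold changes of the 10 genes were positive in 440 of 440 gene and setting combinations, from 0.10 to 4.11, and calls differed from those reported in 2, both CYP86A1 in wild type with GC and length offsets. Under ABA no call differed in 220 combinations. The untreated genotype calls depended most on processing. The 3 genes higher became 1 with GC and length offsets, alone or with a replicate block, and the 2 lower became 0. Leaving out 1 library gave 1 to 3 higher and 0 to 2 lower: 1 higher when replicate 1 of either untreated group was left out, 0 lower without that of the mutant, and 1 lower without untreated replicate 1 or 3 of wild type or 2 of the mutant. It gave 9 higher for ABA in wild type, 10 in the mutant and 0 in the other counts. For the interaction, 0 lower became 1 with DESeq2. Directions turned with GC and length offsets, without and with the block, in some genes called in the reported fit or with the offsets. Between untreated genotypes these were FAR4 (−0.01 and −0.01) and FAR5 (−0.20 and −0.20). With ABA in wild type they were GPAT4 (0.55 and 0.56, called with the offsets), CYP86A2 (0.01 and 0.00) and ESB1 (0.01 and 0.02). Among the suberin genes not called between untreated genotypes, the same offsets turned FAR1 (−0.17 and −0.16), ABCG2 (0.14 and 0.15) and ABCG6 (0.35 and 0.37), and library totals turned ABCG2 (0.02). The cause was not tested. Scaling by library totals moved the median of all genes from −0.027 to 0.172 for ABA in wild type. It moved from 0.014 to 0.262 between untreated genotypes and from −0.007 to −0.200 for the interaction. This scaling also called ASFT higher in the untreated mutant. Same-numbered libraries were not treated as pairs in the reported fit, and the labels give only replicate numbers. Of 18 same-numbered pairs, 6 had residual correlations above 0.1 (−0.363 to 0.537 over all 18). Of 12 libraries, 4 correlated best with their own number. Residuals were centred within small groups, so these values cannot exclude a shared batch. With the replicate block the call of FAR5 between untreated genotypes was lost (0.43, adjusted p = 0.0599, edgeR) and 2 genes stayed higher. MYB41 rests on 13 to 24 counts in untreated libraries, which limits its precision there.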
